A study of Homo sapiens with 8 samples.

Results

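The genes described here carry out DNA replication and the other work of S phase, and 45 of the 46 genes listed were measured, out of 8226 genes named on the array. They were listed by their role, not by their values on these arrays, although earlier results of these data were known. They were sorted into 7 steps from the licensing of origins to the rebuilding of chromatin behind the fork. Each gene was read from probe sets that the platform annotation ties to its symbol alone, and where a gene had several, the one with the highest mean over all 8 arrays was taken. GMNN had no such probe set and was not analysed here.

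Expression was measured on Affymetrix Human Genome U95Av2 arrays in 4 groups of 2 arrays, LNCaP cells with activated Notch1, LNCaP cells with the GFP control, PC3 cells with activated Notch1 and PC3 cells with the GFP control. LNCaP is a prostate cancer line from a lymph node metastasis that responds to androgens, and PC3 is an androgen-independent prostate cancer line from a bone metastasis. Both are established lines, so each stands for the cells of 1 tumor, and the GFP control carries green fluorescent protein in place of activated Notch1. The methods describe the treatment as acute activation, and they state that 2 chips were made per sample, so the arrays of a group may be repeat chips of 1 sample. Nothing in the labels or methods says that they came from separate cultures, and the p-values then measure the spread between chips.

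DNA replication starts at origins that are first licensed by loading the MCM helicase onto DNA, with the help of the origin recognition complex and CDC6, and are then fired by kinases that turn the helicase on by joining CDC45 and GINS to it. At the fork, primase and the polymerases copy DNA, a sliding clamp loaded by the RFC complex holds the polymerases in place, and RPA, FEN1 and ligase handle single-stranded DNA and the lagging strand. Most of these genes are transcribed as cells approach and enter S phase, and many are known targets of the E2F transcription factors, so their level in a culture follows how many of its cells are cycling. In bulk RNA such as this, a change in the share of cells in S phase and a change in the RNA per cell cannot be told apart.

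Promoter sequences are shown for 8 of the genes, in order to display the E2F letters found in 18 of the 40 genes with a window and, for RRM2, the repeated motif of the member with the largest change. In each step the gene with the largest LNCaP change whose window held a searched E2F match was taken, and its match is in capitals. RRM2, which held no E2F match, is shown from the first of its 2 windows with its CCAAT boxes in capitals. Each window runs from 250 bases before to 50 bases after a transcription start (RefSeq, GRCh38.p14), read 5′ to 3′ on the strand of the gene.
CDC6: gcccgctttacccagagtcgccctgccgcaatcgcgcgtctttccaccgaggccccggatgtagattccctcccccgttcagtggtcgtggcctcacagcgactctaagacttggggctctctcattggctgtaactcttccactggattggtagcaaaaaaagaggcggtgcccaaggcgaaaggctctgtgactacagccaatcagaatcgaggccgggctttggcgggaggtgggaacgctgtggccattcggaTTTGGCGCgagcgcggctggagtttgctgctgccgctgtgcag
GINS1: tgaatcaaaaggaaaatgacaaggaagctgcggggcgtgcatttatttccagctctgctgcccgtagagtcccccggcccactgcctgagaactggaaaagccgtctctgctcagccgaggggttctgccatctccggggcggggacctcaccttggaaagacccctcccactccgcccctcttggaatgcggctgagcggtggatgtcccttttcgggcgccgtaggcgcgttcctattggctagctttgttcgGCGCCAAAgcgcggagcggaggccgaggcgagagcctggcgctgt
POLE2: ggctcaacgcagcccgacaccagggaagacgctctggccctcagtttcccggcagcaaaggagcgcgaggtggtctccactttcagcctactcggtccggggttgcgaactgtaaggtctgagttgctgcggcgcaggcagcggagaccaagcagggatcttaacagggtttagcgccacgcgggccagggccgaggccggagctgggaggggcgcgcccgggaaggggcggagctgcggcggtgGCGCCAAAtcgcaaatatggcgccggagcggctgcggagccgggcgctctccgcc
RFC3: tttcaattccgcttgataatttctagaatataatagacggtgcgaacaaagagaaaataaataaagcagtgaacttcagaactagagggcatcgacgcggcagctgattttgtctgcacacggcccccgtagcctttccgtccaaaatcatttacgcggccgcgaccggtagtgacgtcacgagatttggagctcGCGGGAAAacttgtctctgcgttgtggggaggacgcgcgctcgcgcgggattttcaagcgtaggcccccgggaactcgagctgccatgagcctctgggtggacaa
LIG1: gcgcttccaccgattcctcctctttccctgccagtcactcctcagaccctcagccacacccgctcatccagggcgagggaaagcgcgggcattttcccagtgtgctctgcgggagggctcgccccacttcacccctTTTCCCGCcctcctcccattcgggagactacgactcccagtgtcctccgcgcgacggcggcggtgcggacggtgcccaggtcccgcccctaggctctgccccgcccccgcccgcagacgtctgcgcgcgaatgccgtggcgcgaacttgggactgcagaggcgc
TYMS: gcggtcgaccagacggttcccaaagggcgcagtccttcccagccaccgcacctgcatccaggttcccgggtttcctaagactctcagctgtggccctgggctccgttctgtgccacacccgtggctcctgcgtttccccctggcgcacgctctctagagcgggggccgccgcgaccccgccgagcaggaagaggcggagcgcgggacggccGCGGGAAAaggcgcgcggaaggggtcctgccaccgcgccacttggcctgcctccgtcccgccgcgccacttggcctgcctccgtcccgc
DNMT1: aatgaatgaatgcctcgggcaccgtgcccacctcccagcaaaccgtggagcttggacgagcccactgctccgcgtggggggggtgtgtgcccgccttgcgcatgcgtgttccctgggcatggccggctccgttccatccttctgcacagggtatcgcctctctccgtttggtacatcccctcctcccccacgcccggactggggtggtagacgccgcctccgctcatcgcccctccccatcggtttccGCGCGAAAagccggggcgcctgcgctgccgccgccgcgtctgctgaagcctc
RRM2: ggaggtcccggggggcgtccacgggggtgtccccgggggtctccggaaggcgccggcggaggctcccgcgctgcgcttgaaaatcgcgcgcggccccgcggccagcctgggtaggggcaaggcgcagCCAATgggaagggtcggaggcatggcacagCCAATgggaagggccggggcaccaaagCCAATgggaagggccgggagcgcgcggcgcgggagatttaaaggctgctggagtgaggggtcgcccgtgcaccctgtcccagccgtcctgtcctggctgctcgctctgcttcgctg
These windows lie at chr17:40287629-40287928 (plus strand), chr20:25407423-25407722 (plus), chr14:49688165-49688464 (minus), chr13:33817899-33818198 (plus), chr19:48170295-48170594 (minus), chr18:657403-657702 (plus), chr19:10194904-10195203 (minus) and chr2:10122489-10122788 (plus). The capitals began 7 bases after the start in CDC6, 5 after it in GINS1, 5 before it in POLE2, 55 before it in RFC3, 114 before it in LIG1, 39 before it in TYMS and 2 before it in DNMT1. The 3 CCAAT boxes of RRM2 began 123, 93 and 66 bases before the start, and each ran into the letters TGGGAA, the core that the Notch partner RBPJ binds, with which it shared 1 base.

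The E2F search used TTTCGCGC, TTTGGCGC, TTTCCCGC and TTTGCCGC on both strands. Windows were given for 40 of the 45 measured genes, and those of MCM4, MCM5, RPA2, RPA3 and CCNE2 were not used here. A match stood in 18 of the 55 windows of these genes (32.7%), against 429 of the 10095 windows of all genes measured on the array (4.25%) and 1164 of 35116 windows in all (3.31%). The median GC content of the windows was 65.7% for the replication genes, 63.0% for the genes on the array and 58.7% for all windows. The CCAAT box, searched as CCAAT on both strands, stood in 50.9% of the replication gene windows and in 34.6% of those of the array's genes. The RBPJ core TGGGAA, on both strands, stood in 36.4% and 21.6% of the same sets. These are matches of letters, and no factor was measured at these sites.

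HES1, a direct target of Notch, served as the check of the labels. Its log2 level was 11.22 and 11.23 in LNCaP with Notch1, against 8.41 and 8.47 with GFP, and it was 10.51 and 10.61 in PC3 with Notch1, against 7.92 and 8.08 with GFP. The Notch1 arrays were thus far above the GFP arrays of both lines, by 2.78 ± 0.12 in LNCaP and 2.56 ± 0.12 in PC3 on the log2 scale (change ± SE), and its change did not pass the test of a difference between lines (0.23, 95% interval -0.14 to 0.59, adjusted p = 0.36, limma).

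Array medians were 6.28 to 6.36 (log2) in LNCaP and 5.95 to 6.01 in PC3, and no source states whether both lines were normalized together. The 3′ minus 5′ signal of ACTB, a sign of RNA quality, was 0.45 ± 0.10 with Notch1 and 0.62 ± 0.06 with GFP in LNCaP, and 0.33 ± 0.08 with Notch1 and 0.38 ± 0.07 with GFP in PC3 (log2, mean ± SD, n = 2). That of GAPDH was 0.38 with Notch1 and 0.56 with GFP in LNCaP, and -0.06 with Notch1 and 0.02 with GFP in PC3, and the part of RNA quality in the results below was not tested. The identity genes differed between the lines in the direction of the labels, but not all by a wide margin. TMPRSS2 was at 8.27 to 9.18 in LNCaP and 4.94 to 5.29 in PC3 (log2). CAV1 was at 1.64 to 1.71 in LNCaP and 8.73 to 9.72 in PC3. KLK3 separated the lines least, being at 7.18 to 7.93 in PC3. Its LNCaP mean was above its PC3 mean by 1.49 with GFP and 1.2 with Notch1. KLK2, KLK3 and TMPRSS2, all 3 measured LNCaP identity genes, fell in LNCaP with Notch1 by 1.51, 0.75 and 0.82, and 4 of 5 PC3 identity genes (CD44, CAV1, PLAU and S100A2) rose in PC3 with Notch1 by 0.91, 0.68, 0.91 and 1.18. The part of these shifts in the results below was not tested. None of 3 leukocyte and 2 fibroblast genes was called in either line, PTPRC in PC3 being the one with an unadjusted p under 0.05 (-0.31, limma). This speaks to their change and not to a lack of signal. CD14 was at 7.18 to 7.81 on the 8 arrays, and LUM was at 6.36 to 6.58 in LNCaP and 0.84 to 1.02 in PC3.

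In LNCaP cells, activated Notch1 was accompanied by higher levels of most replication genes. Of the 45 genes, 33 rose (73.3%), 1 fell and 11 did not pass the test, against 8.47% of all 8226 genes called higher and 10.2% called lower (adjusted p under 0.05 over 12558 probe sets, limma). The rise was 2-fold or more in 16 genes (2.52% of all genes). Their median change was 0.73 on the log2 scale, or 1.66-fold, with a range of -0.83 to 2.41, and the median of all genes was 0.04. Both Notch1 arrays lay above both GFP arrays in 39 of 45 (33.4% of all genes) and below in 2 (25.6% of all genes). The share called higher was thus well above that of the array, and it was seen at every step of replication.

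In PC3 cells the same comparison gave 6 genes higher (13.3%), none lower and 39 not called, against 4.36% of all genes called higher and 2.21% called lower. The 6 were MCM6, CDC6, CCNE2, RRM2, DUT and DNMT1. The median change was 0.17, with a range of -0.25 to 0.95, and that of all genes was -0.07. Both Notch1 arrays lay above both GFP arrays in 28 genes (62.2%, against 21.9% of all genes) and below in 2 (35.2% of all genes). An unadjusted p under 0.05 was reached by 15 genes, all higher (limma). The share of all genes under that level was not counted, here or for the counts by step below. With the replicate number as a block, 11 were called higher, while the probe sets called higher over the whole array went from 526 to 919. Of the 6 calls, that of RRM2 alone was kept under each of the 15 alternative settings.

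**Figure D1:**
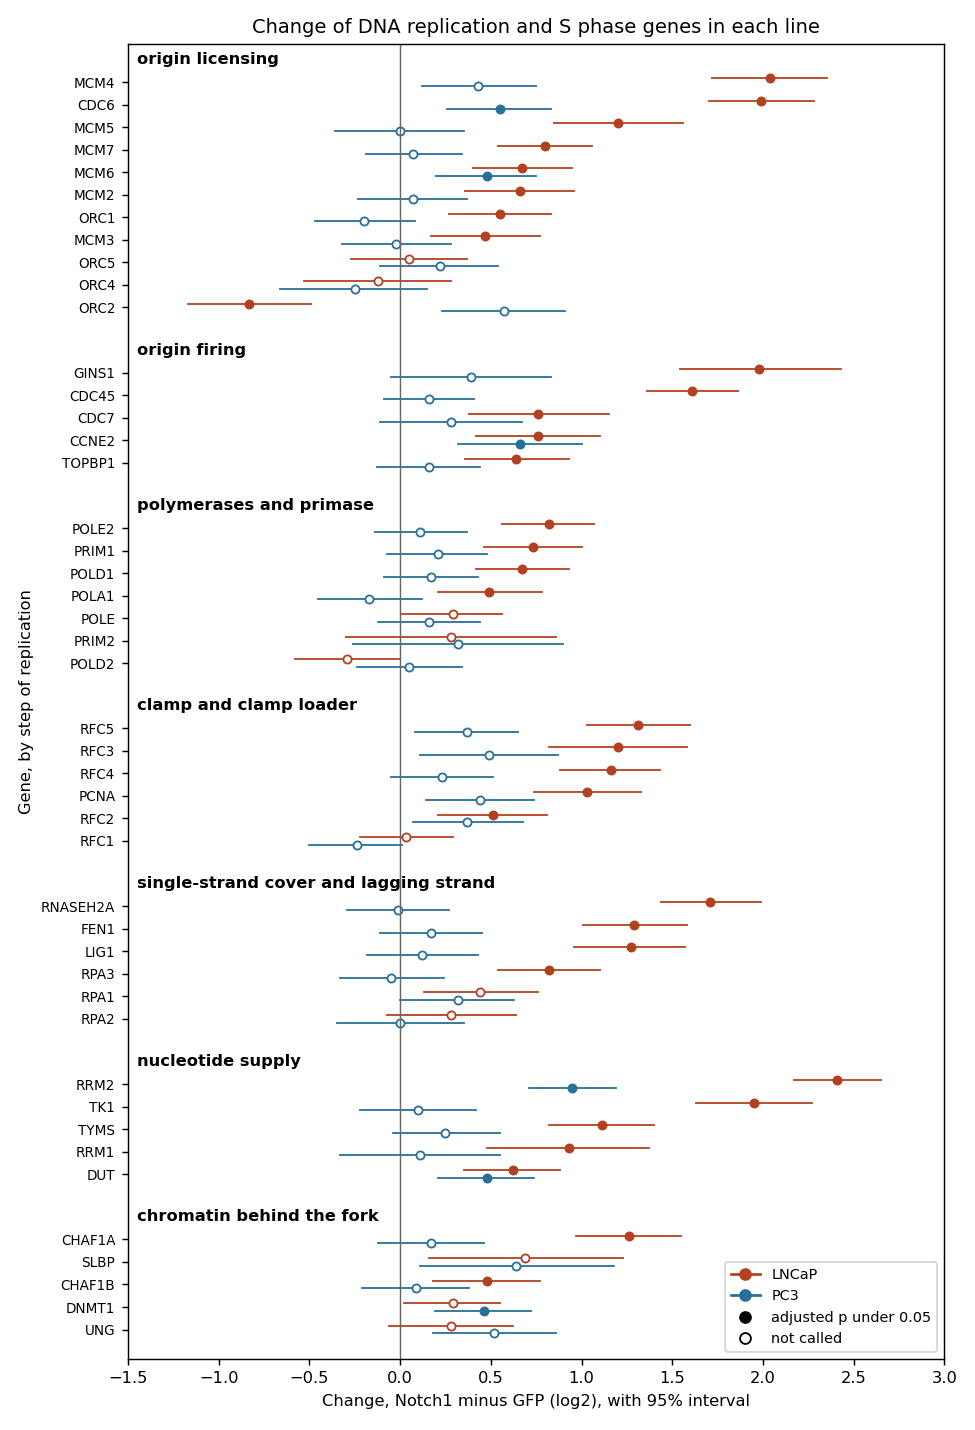
Change of each of the 45 replication genes with Notch1 (log2, Notch1 minus GFP, x axis) in LNCaP and in PC3, by step of replication, with the 95% interval as a line. Filled points were called at an adjusted p under 0.05, 34 in LNCaP and 6 in PC3, and ORC2 is the single gene called lower.

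The difference between the lines was tested on its own, as the LNCaP effect minus the PC3 effect. It was called higher in 19 of the 45 genes (42.2%) and lower in 1, against 6.86% and 8.34% of all genes. The median difference was 0.59, and that of all genes was 0.11. With each array centred on its median the median of all genes became 0.02 and that of the replication genes 0.49.

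**Figure D2:**
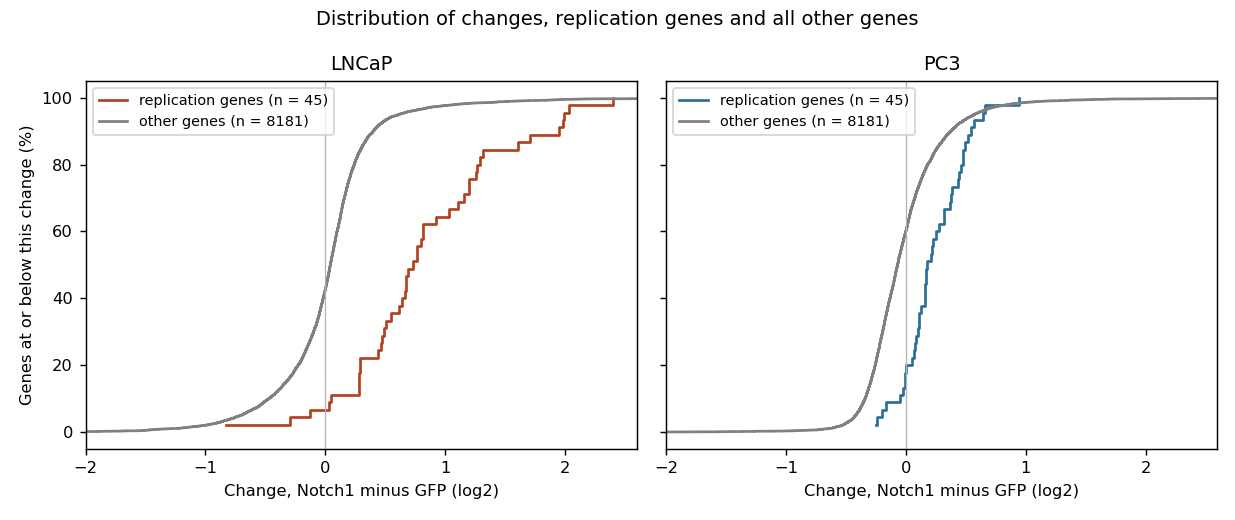
Share of genes (%, y axis) at or below each change with Notch1 (log2, x axis), for the 45 replication genes and the 8181 other genes in LNCaP and in PC3. At its median the curve of the replication genes lies to the right in both lines, at 0.73 in LNCaP and 0.17 in PC3. Some other genes rose further than any replication gene, as HES1 did (2.78 in LNCaP and 2.56 in PC3).

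Origin licensing comes first. Of its 11 genes, 8 rose in LNCaP, 1 fell and 2 were not called, with a median change of 0.66. All 6 subunits of the MCM2 to MCM7 ring, the motor of the helicase, rose, but by unequal amounts. MCM4 was at 9.22 and 9.17 (log2) in LNCaP with Notch1, against 7.0 and 7.32 with GFP, and at 7.96 and 8.24 in PC3 with Notch1, against 7.64 and 7.70 with GFP. The groups did not overlap in either line, and the LNCaP groups lay far apart. MCM4 rose 4.1-fold in LNCaP (2.04 ± 0.14, adjusted p = 6.9e-06), and its PC3 change of 0.43 did not pass the test (adjusted p = 0.102, or 0.0468 with the replicate block). MCM5 was at 8.18 and 8.13 in LNCaP with Notch1, against 7.01 and 6.90 with GFP, and at 7.71 and 7.68 in PC3 with Notch1, against 7.97 and 7.43 with GFP. It rose 2.3-fold in LNCaP (adjusted p = 0.000496), while in PC3 the GFP arrays stood on either side of the Notch1 arrays (change 0.00, 95% interval -0.36 to 0.35). MCM7 was at 10.95 and 10.78 in LNCaP with Notch1, against 10.09 and 10.04 with GFP, and at 11.29 and 11.25 in PC3 with Notch1, against 11.27 and 11.13 with GFP. The groups were apart in LNCaP and overlapped in PC3. MCM6 (0.67), MCM2 (0.66) and MCM3 (0.47) rose less in LNCaP. The call of MCM3 was lost with median centring, with values under log2 5 raised to 5 and with the LNCaP arrays alone. MCM6 was at 10.28 and 10.35 in LNCaP with Notch1, against 9.69 and 9.59 with GFP, and at 10.05 and 10.08 in PC3 with Notch1, against 9.45 and 9.72 with GFP. Its groups were apart in both lines, and its PC3 change of 0.48 was just inside the threshold (adjusted p = 0.0499). That call was lost with quantile normalization and with the PC3 arrays alone. Of the 6 subunits, MCM4, MCM5 and MCM7 passed the test of a difference between lines, at 1.60, 1.21 and 0.73, and MCM2 did with the replicate block (0.59, adjusted p = 0.0221).

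CDC6, the ATPase that helps to load the helicase, was at 6.22 and 6.08 in LNCaP with Notch1, against 4.05 and 4.26 with GFP, and at 5.74 and 5.73 in PC3 with Notch1, against 5.08 and 5.30 with GFP. The Notch1 arrays were higher in both lines, by 1.99 ± 0.13 in LNCaP (adjusted p = 4.36e-06) and 0.55 ± 0.13 in PC3 (adjusted p = 0.0352), and the difference between lines was 1.44. Its second probe set gave smaller changes that were not called, 0.39 in LNCaP and 0.04 in PC3. The LNCaP GFP values of CDC6 were dim. With values under log2 5 raised to 5, its difference between lines was not called (adjusted p = 0.0618, limma), nor was its PC3 change. Its PC3 call was also lost with the PC3 arrays alone and with its probe sets averaged.

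The origin recognition complex, which marks origins, did not move as a unit. ORC1, its cell cycle regulated subunit, was at 7.81 and 7.54 in LNCaP with Notch1, against 7.12 and 7.13 with GFP, and at 7.15 and 7.05 in PC3 with Notch1, against 7.30 and 7.30 with GFP. It rose in LNCaP (0.55, adjusted p = 0.0119), its Notch1 arrays were the lower ones in PC3 (-0.20, adjusted p = 0.34), and the difference of 0.75 was called. ORC2 was at 5.42 and 5.55 in LNCaP with Notch1, against 6.25 and 6.38 with GFP, and at 5.62 and 5.92 in PC3 with Notch1, against 5.02 and 5.38 with GFP. It was the one gene of the 45 that fell in LNCaP (-0.83 ± 0.15, adjusted p = 0.00376), its Notch1 arrays were the higher ones in PC3 (0.57, adjusted p = 0.0573), and the difference between lines was -1.40 (adjusted p = 0.00223). With values under log2 5 raised to 5 its fall was not called (adjusted p = 0.0547), and with the replicate number as a block its PC3 change was (adjusted p = 0.0113). ORC5 (0.05) and ORC4 (-0.12) were not called in LNCaP, and ORC4 was dim, at 2.20 to 3.54 on the 8 arrays.

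All 5 genes of origin firing rose in LNCaP, with a median change of 0.76. GINS1, a subunit of the GINS complex of the active helicase, was at 8.14 and 8.20 in LNCaP with Notch1, against 6.0 and 6.38 with GFP, and at 6.29 and 6.05 in PC3 with Notch1, against 5.47 and 6.09 with GFP. It rose 3.96-fold in LNCaP (1.98 ± 0.20, adjusted p = 6.6e-05), and in PC3 the groups overlapped (0.39, adjusted p = 0.249). CDC45, the other partner of the helicase, was at 8.33 and 8.39 in LNCaP with Notch1, against 6.72 and 6.77 with GFP, and at 8.87 and 8.73 in PC3 with Notch1, against 8.66 and 8.63 with GFP. The LNCaP arrays were tight within each group and the rise was 3.05-fold (1.61 ± 0.11, adjusted p = 6.63e-06), against 1.11-fold in PC3 (adjusted p = 0.4). The differences between lines were 1.60 for GINS1 and 1.45 for CDC45.

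CCNE2, an E-type cyclin that drives CDK2 at the start of S phase, was at 8.13 and 8.16 in LNCaP with Notch1, against 7.25 and 7.51 with GFP, and at 7.40 and 7.32 in PC3 with Notch1, against 6.49 and 6.91 with GFP. It rose in both lines, by 0.76 ± 0.15 in LNCaP (adjusted p = 0.00624) and 0.66 ± 0.15 in PC3 (adjusted p = 0.0333). The difference between them was 0.10 with a 95% interval of -0.38 to 0.59. With values under log2 5 raised to 5 neither rise was called (adjusted p = 0.0665 in LNCaP, limma). That in PC3 was also lost with the PC3 arrays alone. CDC7, the kinase that acts on the MCM ring, was at 7.15 and 7.31 in LNCaP with Notch1, against 6.23 and 6.70 with GFP, and at 5.94 and 6.22 in PC3 with Notch1, against 5.68 and 5.92 with GFP. It rose in LNCaP (0.76, adjusted p = 0.0121), where 1 GFP array was well below the other, and was not called in PC3 (0.28). TOPBP1, a scaffold for helicase activation, rose in LNCaP by 0.64.

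**Figure D3:**
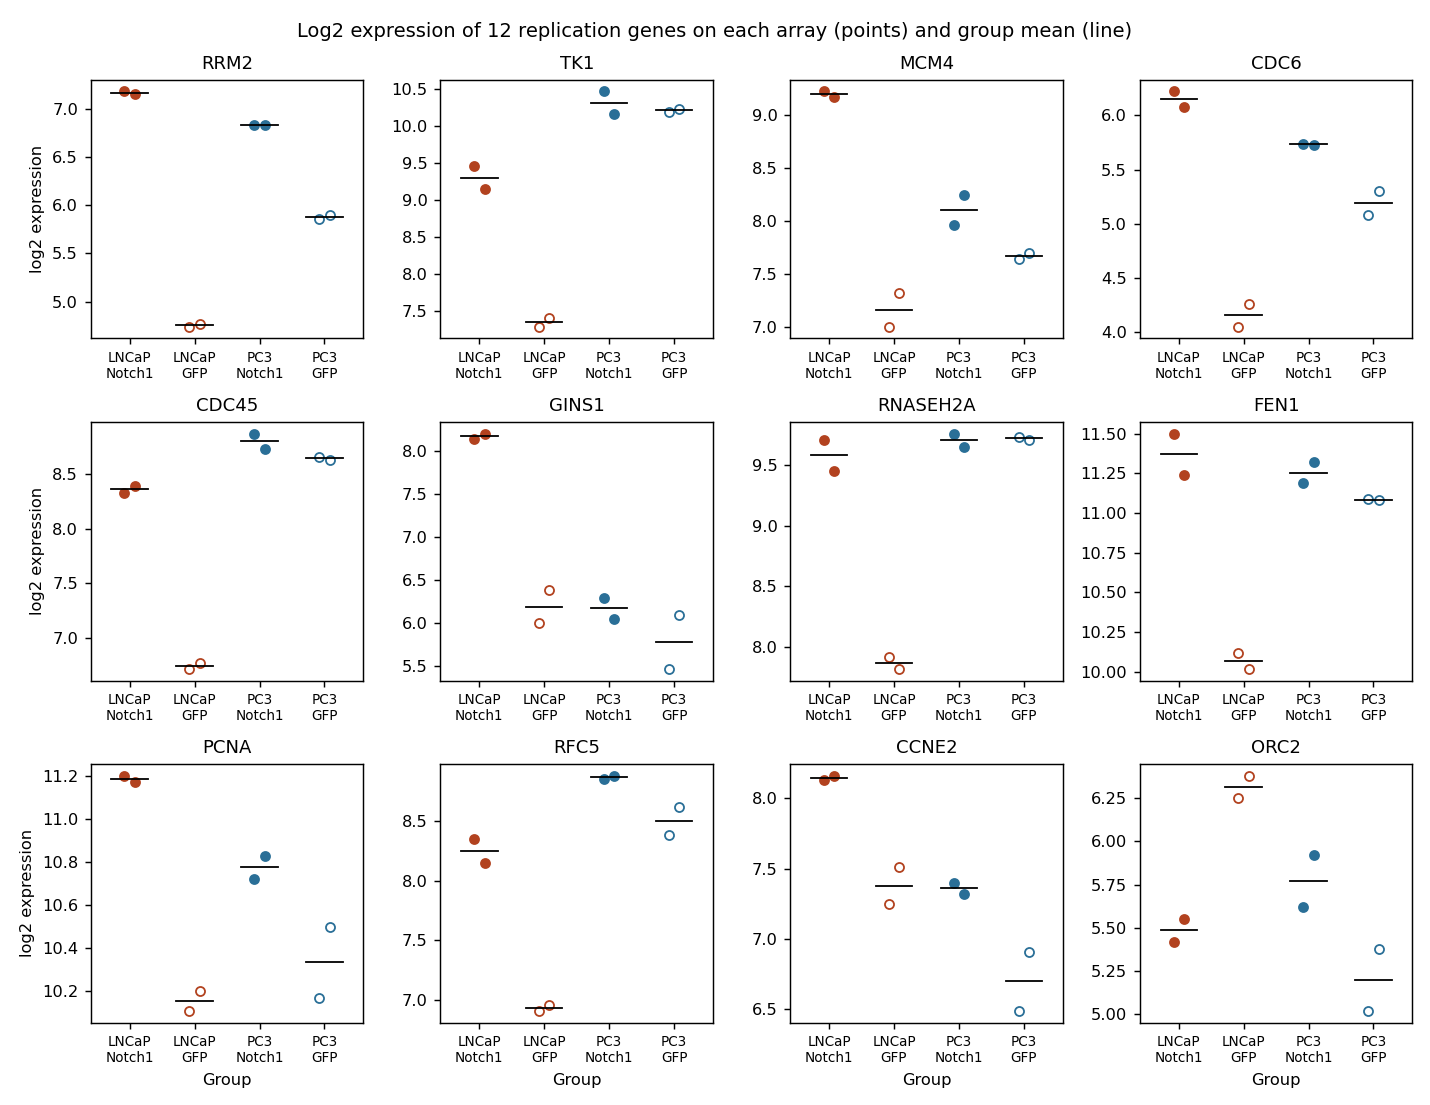
Log2 expression (y axis) of 12 replication genes on each of the 8 arrays, as points, with the group mean as a line, for LNCaP with Notch1, LNCaP with GFP, PC3 with Notch1 and PC3 with GFP. In 11 of the 12 panels the LNCaP Notch1 arrays lie above the LNCaP GFP arrays, and ORC2 runs the other way. Each panel has its own y range.

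Of the 7 polymerase and primase genes, 4 rose in LNCaP, none of them by 2-fold, with a median change of 0.49. None of the 7 was called in PC3, and none had an unadjusted p under 0.05 there (limma). POLE2, a subunit of the leading strand polymerase epsilon, was at 7.30 and 7.22 in LNCaP with Notch1, against 6.53 and 6.36 with GFP, and at 9.22 and 9.21 in PC3 with Notch1, against 9.08 and 9.12 with GFP. It rose by 0.82 ± 0.11 in LNCaP (adjusted p = 0.000666), and its PC3 change of 0.11 was small beside that (difference 0.71, adjusted p = 0.0168). PRIM1, the catalytic subunit of primase, was at 7.94 and 7.86 in LNCaP with Notch1, against 7.06 and 7.28 with GFP, and at 8.74 and 8.87 in PC3 with Notch1, against 8.60 and 8.60 with GFP. It rose in LNCaP by 0.73, and its groups were apart in both lines. POLD1, the catalytic subunit of polymerase delta, was at 8.93 on both Notch1 arrays of LNCaP, against 8.27 and 8.24 with GFP, and at 9.63 and 9.57 in PC3 with Notch1, against 9.53 and 9.33 with GFP, and it rose in LNCaP by 0.67. Neither PRIM1 (0.21) nor POLD1 (0.17) was called in PC3, and neither difference between lines was (with the replicate block, adjusted p = 0.0415 for PRIM1 and 0.0357 for POLD1). POLA1, the catalytic subunit of the polymerase that starts each strand, was at 6.29 and 6.37 in LNCaP with Notch1, against 5.79 and 5.88 with GFP, and at 6.50 and 6.77 in PC3 with Notch1, against 6.87 and 6.73 with GFP. The LNCaP groups were apart (0.49, adjusted p = 0.0229) and the PC3 groups overlapped (-0.17). The difference of 0.66 passed the test (adjusted p = 0.0371), but was lost under 9 of 14 alternatives, among them either rescaling of the arrays. Its LNCaP call was lost under 5 of 15, among them values under log2 5 raised to 5. POLE, PRIM2 and POLD2 were not called in either line, with LNCaP changes of 0.29, 0.28 and -0.29. One of the other probe sets of POLE was called in LNCaP (0.42), and that of PRIM2 was called in PC3 (0.48, adjusted p = 0.0381).

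Of the 6 genes of the sliding clamp and its loader, 5 rose in LNCaP, with a median change of 1.10, and none was called in PC3, where 4 had an unadjusted p under 0.05 (limma). PCNA, the clamp itself, was at 11.20 and 11.17 in LNCaP with Notch1, against 10.11 and 10.20 with GFP, and at 10.72 and 10.83 in PC3 with Notch1, against 10.17 and 10.50 with GFP. The Notch1 arrays were the higher ones in both lines, by 1.03 ± 0.13 in LNCaP (adjusted p = 0.000408) and by 0.44 ± 0.13 in PC3 (adjusted p = 0.0833, or 0.0383 with the replicate block). The difference of 0.59 did not pass the test (adjusted p = 0.0625, or 0.03 with the block). That of the other PCNA probe set, 0.62, did (adjusted p = 0.027, limma). Among the loader subunits, RFC5 was at 8.35 and 8.15 in LNCaP with Notch1, against 6.91 and 6.96 with GFP, and at 8.85 and 8.88 in PC3 with Notch1, against 8.38 and 8.62 with GFP. It rose by 1.31 in LNCaP (adjusted p = 5.25e-05) and had the largest difference between lines of this step, 0.95 (adjusted p = 0.00649). RFC5 has 3 probe sets, and a dim one at 3.59 to 5.28 gave -0.53 in LNCaP and 0.80 in PC3, neither of them called. With the probe sets of the gene averaged, the difference between lines was not called (adjusted p = 0.72).

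RFC4 was at 9.21 and 9.32 in LNCaP with Notch1, against 8.22 and 7.99 with GFP, and at 10.06 and 10.05 in PC3 with Notch1, against 9.90 and 9.75 with GFP. Its rise of 1.16 in LNCaP exceeded its PC3 change of 0.23 by 0.93 (adjusted p = 0.00665). The other probe set of RFC4 gave 0.97 in LNCaP, which was called, and 0.51 in PC3, and the difference of 0.46 was not called. RFC3 was at 5.31 and 5.22 in LNCaP with Notch1, against 4.09 and 4.03 with GFP, and at 5.73 and 5.43 in PC3 with Notch1, against 4.83 and 5.35 with GFP. It rose by 1.20 in LNCaP (adjusted p = 0.000741), where its GFP values were dim, and with values under log2 5 raised to 5 it was not called (adjusted p = 0.454). RFC2 rose by 0.51. RFC1, the large subunit, stood apart from the 4 small ones, at 6.47 on both Notch1 arrays of LNCaP against 6.37 and 6.51 with GFP (0.03, adjusted p = 0.906).

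Of the 6 genes that cover single strands or finish the lagging strand, 4 rose in LNCaP, and RNASEH2A, FEN1, LIG1 and RPA3 were called both there and in the difference between lines. None was called in PC3, where 1 had an unadjusted p under 0.05 (limma). RNASEH2A, the catalytic subunit of the enzyme that cuts RNA out of DNA, was at 9.71 and 9.45 in LNCaP with Notch1, against 7.92 and 7.82 with GFP, and at 9.76 and 9.65 in PC3 with Notch1, against 9.73 and 9.71 with GFP. The PC3 groups overlapped (-0.01, 95% interval -0.29 to 0.27), while LNCaP rose 3.28-fold (1.71 ± 0.12, adjusted p = 8.41e-06), and the difference was 1.72 (adjusted p = 0.000177). FEN1, the flap nuclease that trims Okazaki fragments, was at 11.50 and 11.24 in LNCaP with Notch1, against 10.12 and 10.02 with GFP, and at 11.19 and 11.32 in PC3 with Notch1, against 11.09 and 11.08 with GFP. LIG1, the ligase that joins them, was at 9.06 and 8.75 in LNCaP with Notch1, against 7.54 and 7.73 with GFP, and at 8.06 and 7.94 in PC3 with Notch1, against 7.91 and 7.84 with GFP. The rises in LNCaP were 1.29 for FEN1 and 1.27 for LIG1, and they exceeded the PC3 changes by 1.12 and 1.14. The other probe sets of FEN1 gave 1.28 and 1.25 in LNCaP. RPA, the complex that covers single-stranded DNA, changed unevenly. RPA3, its smallest subunit, was at 9.04 and 9.27 in LNCaP with Notch1, against 8.35 and 8.32 with GFP, and at 8.55 and 8.73 in PC3 with Notch1, against 8.63 and 8.74 with GFP. It rose in LNCaP (0.82, adjusted p = 0.00127), whereas RPA1 (0.44, adjusted p = 0.0578) and RPA2 (0.28, adjusted p = 0.281) were not called. RPA1 was called with the replicate block (adjusted p = 0.022), and its other probe set was called in LNCaP (0.83). The other probe set of RPA3 gave 0.85 in LNCaP, which was called, and 0.40 in PC3. Its difference between lines of 0.45 was not called.

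All 5 genes of nucleotide supply rose in LNCaP, with a median change of 1.11. RRM2, the small subunit of ribonucleotide reductase, which makes deoxyribonucleotides and limits their supply, was at 7.18 and 7.15 in LNCaP with Notch1, against 4.74 and 4.77 with GFP, and at 6.83 and 6.83 in PC3 with Notch1, against 5.86 and 5.90 with GFP. The arrays of each group lay close together and the groups were far apart in both lines. RRM2 rose 5.3-fold in LNCaP (2.41 ± 0.11, adjusted p = 4.76e-07) and 1.93-fold in PC3 (0.95 ± 0.11, adjusted p = 0.000449), the largest change of the 45 genes in each line, and the difference was 1.46 (adjusted p = 0.000196). RRM1, the large subunit, was at 8.53 and 8.43 in LNCaP with Notch1, against 7.34 and 7.77 with GFP, and at 8.24 and 8.09 in PC3 with Notch1, against 7.75 and 8.35 with GFP. It rose in LNCaP by 0.93 (adjusted p = 0.00892), less than RRM2, and its PC3 groups overlapped. The difference of 0.82 did not pass the test (adjusted p = 0.0798, or 0.0487 with the replicate block), and it was also called without LNCaP GFP replicate 2 or PC3 GFP replicate 1.

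TK1, the thymidine kinase of cycling cells, was at 9.45 and 9.15 in LNCaP with Notch1, against 7.29 and 7.41 with GFP, and at 10.46 and 10.16 in PC3 with Notch1, against 10.19 and 10.22 with GFP. It rose 3.87-fold in LNCaP (1.95 ± 0.14, adjusted p = 9.17e-06) and overlapped in PC3 (0.10, 95% interval -0.22 to 0.42), which gave it the largest difference between lines of the 45 genes, 1.85 (adjusted p = 0.000273). Its other probe set gave 2.51 in LNCaP and 0.04 in PC3. TYMS, thymidylate synthase, was at 10.74 and 10.53 in LNCaP with Notch1, against 9.57 and 9.48 with GFP, and at 10.84 and 10.74 in PC3 with Notch1, against 10.66 and 10.41 with GFP. It rose by 1.11 in LNCaP (adjusted p = 0.000231), and the difference from PC3 was 0.86. DUT, which keeps uracil out of DNA by clearing dUTP, was at 11.32 and 11.27 in LNCaP with Notch1, against 10.63 and 10.72 with GFP, and at 11.28 and 11.29 in PC3 with Notch1, against 10.70 and 10.92 with GFP. It rose in LNCaP by 0.62 (adjusted p = 0.00485) and in PC3 by 0.48 (adjusted p = 0.0427), and the difference of 0.14 had a 95% interval of -0.23 to 0.51. Its PC3 call was lost with quantile normalization, with values under log2 5 raised to 5 and with the PC3 arrays alone.

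Of the 5 genes that act behind the fork, 2 rose in LNCaP and 1 in PC3, and the median difference between lines was 0.05. CHAF1A, the large subunit of the CAF-1 complex that lays histones on new DNA, was at 8.44 and 8.23 in LNCaP with Notch1, against 7.0 and 7.15 with GFP, and at 8.73 and 8.54 in PC3 with Notch1, against 8.51 and 8.42 with GFP. It rose by 1.26 in LNCaP (adjusted p = 8.36e-05) and its PC3 change of 0.17 was not called. CHAF1B, another CAF-1 subunit, rose by 0.48 in LNCaP, a call that was lost with median centring and with the LNCaP arrays alone. DNMT1, which copies DNA methylation onto the new strand, was at 9.26 and 9.23 in LNCaP with Notch1, against 8.90 and 9.02 with GFP, and at 9.54 and 9.72 in PC3 with Notch1, against 9.22 and 9.12 with GFP. It was called in PC3 (0.46, adjusted p = 0.0498) and not in LNCaP (0.29, adjusted p = 0.14), and the difference of -0.17 did not pass the test (95% interval -0.54 to 0.20). The PC3 call was lost with quantile normalization and with the PC3 arrays alone. SLBP, which binds histone mRNA, was at 8.65 and 8.70 in LNCaP with Notch1, against 7.78 and 8.18 with GFP, and at 8.41 and 8.68 in PC3 with Notch1, against 7.48 and 8.33 with GFP. Its changes of 0.69 in LNCaP and 0.64 in PC3 were not called, although no GFP array reached a Notch1 array, and with the replicate block both were (adjusted p = 0.0162 in LNCaP and 0.0395 in PC3). UNG, which removes uracil from DNA, was at 8.38 and 8.41 in LNCaP with Notch1, against 7.94 and 8.30 with GFP, and at 8.52 and 8.80 in PC3 with Notch1, against 8.04 and 8.24 with GFP. It was not called in either line (0.28 in LNCaP, 0.52 in PC3), and its PC3 change was called with the replicate block (adjusted p = 0.0191).

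The level of these genes in the control cells differed between the lines. In GFP cells, 32 of the 45 genes were lower in LNCaP than in PC3, with a median gap of -0.38 (log2, LNCaP minus PC3), while the median gap of all genes was 0.20. In Notch1 cells, 21 of the 45 were lower in LNCaP, with a median gap of 0.11, and the median gap of all genes was 0.35. The gap was smaller with Notch1 than with GFP in 26 of the 45 genes. The shares of all genes were not counted for these comparisons. For RNASEH2A the gap was -0.13 with Notch1 and -1.85 with GFP, for CDC45 -0.45 and -1.90, and for TK1 -1.01 and -2.86. In other genes it was wider with Notch1, as in GINS1 (2.00 with Notch1 and 0.41 with GFP), MCM4 (1.09 and -0.51) and LIG1 (0.91 and -0.24). These gaps rest on levels set across lines that may have been normalized apart, and they were not tested.

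**Figure D4:**
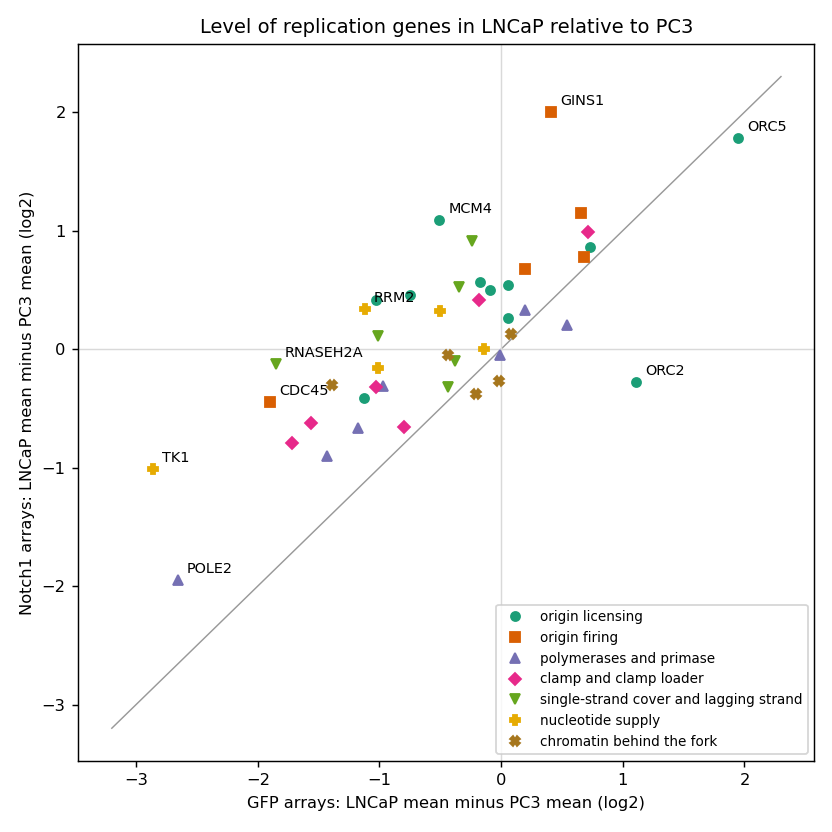
Level of each of the 45 replication genes in LNCaP relative to PC3 (log2, LNCaP mean minus PC3 mean) on the Notch1 arrays (y axis) and on the GFP arrays (x axis), with equality as the diagonal. Points above the diagonal had a larger change with Notch1 in LNCaP than in PC3, as 39 of 45 did, and ORC2 lies far below it. The median difference of all genes was 0.11, and their share above the diagonal was not counted.

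The calls in LNCaP were set beside the E2F letters. Of 18 genes with a match, 15 rose in LNCaP, with a median change of 0.72, and of 22 without one, 14 rose, with a median change of 0.68. Of all genes, 8.47% were called higher in LNCaP, and their shares with and without a match were not counted. Among the 6 genes with a window and a change of 1.61 or more in LNCaP, CDC6 and GINS1 held a match, and RRM2, CDC45, TK1 and RNASEH2A held none. That cut was set after the values were seen, and the search covered only exact words of 8 letters in 300 bases. The part of E2F in these changes was not tested.

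A second list of 53 genes with roles in the same process was read in the same way, and 37 were measured. In LNCaP 15 rose (40.5%, against 8.47% of all genes) and 4 fell (10.2% of all genes fell, a like share). In PC3 2 rose and none fell (6 had an unadjusted p under 0.05, limma), and the 5.41% that rose was near the 4.36% of all genes. The median changes were 0.20 in LNCaP and 0.07 in PC3. CCNA2, the cyclin A of S phase, was at 8.44 and 8.12 in LNCaP with Notch1, against 6.37 and 6.01 with GFP, and at 8.85 and 8.72 in PC3 with Notch1, against 9.13 and 8.77 with GFP. TOP2A, the topoisomerase that untangles daughter DNA, was at 7.30 and 7.42 in LNCaP with Notch1, against 5.93 and 5.71 with GFP, and at 7.61 and 7.62 in PC3 with Notch1, against 8.00 and 7.97 with GFP. The LNCaP groups were far apart for both genes, by 2.09 for CCNA2 (adjusted p = 1.61e-05) and 1.54 for TOP2A (adjusted p = 1.28e-05), and the PC3 changes of -0.17 and -0.37 were not called. TIMELESS (1.43), a guard of fork stability, POLD3 (1.05), a subunit of polymerase delta, and DCK (0.97), a salvage kinase, also rose in LNCaP, whereas ASF1A, a histone chaperone, fell by 0.98. By role, 5 of 8 origin control genes, 6 of 10 fork genes, 3 of 14 nucleotide synthesis genes and 1 of 5 chromatin assembly genes rose in LNCaP. The other 3 genes that fell, named after their values were seen, were NME1 (-0.37), ATIC (-0.41) and IMPDH2 (-0.49), all of nucleotide synthesis. The 2 that rose in PC3, named in the same way, were POLE3 (0.59) and SAMHD1 (0.56), a protein that breaks down deoxyribonucleotides. SAMHD1 also rose in LNCaP, by 0.85 (adjusted p = 0.00186, limma), and its difference between lines of 0.29 was not called. It was dim, at 4.11 to 5.49 on the 8 arrays.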

How the data were processed

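Total RNA of LNCaP and PC3 cells was labelled with biotin and hybridized to U95Av2 arrays. Per the labels and methods, the authors summarised the arrays with RMA, which corrects background, equalises array distributions and combines probes, and used limma (no versions stated). The deposited values are log2, 1 for each array and probe set, no arrays were pooled, and they were used unchanged. Depth does not apply to arrays, and 2 arrays a group limit the precision.

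Of 12625 probe sets, 67 controls were left out and 12558 tested. The platform annotation gave 10943 of these 1 symbol, 545 several and 1070 none, and the Entrez identifiers of all 45 genes matched the RefSeq table with the same symbol. One model with a mean for each of 4 groups was fitted to all 8 arrays with limma 3.58.1 in R 4.3.3 (4 residual and 6.37 prior degrees of freedom). Contrasts were Notch1 minus GFP in each line and the LNCaP effect minus the PC3 effect. Tests were two-sided, with Benjamini-Hochberg adjustment over all tested probe sets and calls at an adjusted p under 0.05. The fit was tested on simulated data. A change is given on the log2 scale with its moderated standard error.

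The genes, lists and tests were chosen with earlier results of these data known. Values on every array are given, by step, for the 3 genes that changed most in LNCaP or PC3, and for each gene called in PC3 or in the difference, and the 6 called genes of the second list that changed most in either line are named, beside 5 named after their values were seen. The deviations of replicate 1 from its group mean correlated at 0.124 to 0.545 for each of the 6 group pairs. Same-numbered arrays thus deviated together, for a reason the sources do not state, and the blocked result stands beside each call it altered. Alternatives were median centring, quantile normalization, leaving out probe sets under the 25th percentile of mean level, a floor at log2 5, the arrays of the line alone, the replicate block, averaging the probe sets of a gene, and leaving out each array. NOTCH1 was not analysed here.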

Additional observations from a re-analysis of the deposited data

Results flagged for a closer look

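The change with Notch1 differed between the lines, by the test of the difference itself, for 20 of the 45 genes (LNCaP effect minus PC3 effect on the log2 scale, limma, adjusted p under 0.05). In licensing it was 1.60 for MCM4, 1.21 for MCM5, 0.73 for MCM7, 1.44 for CDC6, 0.75 for ORC1 and -1.40 for ORC2, and in firing 1.45 for CDC45 and 1.60 for GINS1. Among polymerases it was 0.66 for POLA1 and 0.71 for POLE2, and in the clamp loader 0.93 for RFC4 and 0.95 for RFC5. On the lagging strand it was 0.87 for RPA3, 1.12 for FEN1, 1.14 for LIG1 and 1.72 for RNASEH2A. In nucleotide supply it was 1.46 for RRM2, 0.86 for TYMS and 1.85 for TK1, and in chromatin 1.09 for CHAF1A. ORC2 was the only one of the 20 whose LNCaP effect was the lower. Among other probe sets of these genes, those of CDC6 (0.35), RFC4 (0.46) and RPA3 (0.45) were not called. A dim one of RFC5 was called lower (-1.33), and those of FEN1, TYMS and TK1 and the brighter one of RFC5 were called higher.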

How the results depend on the processing

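The count of replication genes higher in LNCaP, 33, stayed within 1.5 times under every alternative (25 with the floor, 31 to 35 under the other changes of processing, 26 to 35 without 1 array), and their median change was 0.67 to 0.77. Of the 34 called, 23 were called under all 15 alternatives and 11 were lost under some, and 2 uncalled ones were gained under some. The 1 gene lower in LNCaP was 0 with the floor.

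The PC3 count of 6 rested on the setting. It was 3 with quantile normalization, 1 with the floor, 1 with the PC3 arrays alone and 11 with the replicate block. It was 1 to 11 without 1 array: 1 without PC3 GFP replicate 1, either PC3 Notch1 array or either LNCaP Notch1 array, 3 without either LNCaP GFP array, and 11 without PC3 GFP replicate 2. The median change of 0.17 was 0.11 with quantile normalization, 0.17 to 0.21 under the other changes of processing and 0.17 to 0.22 without 1 array. RRM2 alone was called under all 15.

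The difference between lines was called higher in 19 genes, in 13 with the floor, and in 14 to 22 without 1 array, and its median was 0.59, 0.49 with median centring and 0.52 to 0.64 without 1 array. Of the 20 called, 10 were called under all 14 alternatives. With the replicate block the counts were 35 in LNCaP, 11 in PC3 and 24 in the difference. The block added MCM2, POLD1, PRIM1, PCNA and RRM1 to the difference, RPA1 and SLBP to LNCaP, and MCM4, ORC2, PCNA, SLBP and UNG to PC3, and changed no other call.

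Over all probe sets, 526 were higher in PC3, 208 with the floor, 350 with the line alone, 919 with the block and 187 to 1003 without 1 array. The 253 lower became 139, 120 and 588 under the same 3 settings, 169 with quantile normalization, and 64 to 691 without 1 array. In LNCaP 1006 were higher (539 to 1196 without 1 array) and 1170 lower, 730 with the floor and 638 to 1350 without 1 array. In the difference 815 were higher, 512 with the floor, 1445 with the block and 400 to 1348 without 1 array, and 963 lower, 551 with the floor and 550 to 1316 without 1 array. The floor lowered the prior degrees of freedom of the fit to 0.386. With 1 array left out, the lone array of its group is assumed to vary like the others. The cause of the other changes was not tested.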
